A study of Mus musculus with 22 samples.

Results

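Csf3 and 4 ligands of the chemokine receptor CXCR2 (Cxcl1, Cxcl2, Cxcl3 and Cxcl5) are described here in sorted mouse skin fibroblasts. They are the 5 rows of a table of 55414 genes whose Ensembl identifiers carry these symbols. All 5 were among the 17554 genes that passed the filter on low counts. They were picked with the expander against control results of these libraries known, so that comparison is given as a description, without p-values.

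Csf3 encodes G-CSF, the growth factor that drives neutrophil production in the marrow and release into the blood. CXCL1, CXCL2, CXCL3 and CXCL5 are small secreted proteins that bind CXCR2 on neutrophils and draw them into tissue. Fibroblasts are a known source of these factors, and IL-17, IL-1 and TNF acting through NF-kB, together with slower decay of the messenger RNAs, are known to raise them.

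The study modelled skin growth under stretch: a hydrogel expander was placed beneath the back skin, and fibroblast RNA was sequenced in bulk. Every mouse had the operation, including the incision near the tail and the path opened under the skin. EXP mice kept an expander near the neck, and CTRL mice had none. The 22 libraries make 6 groups: on day 1 CTRL numbered 4 and EXP 5, on day 2 each arm numbered 3, and on day 4 CTRL numbered 4 and EXP 3. All came from live cells negative for CD31, CD45, CD117 and EpCAM and positive for CD34 and PDGFRα, so cells outside that gate are not measured. Strain, age and genotype, and whether each library is from a separate mouse, are not given in the sources used here, so the p-values measure the spread between these libraries, which may be in part technical. In bulk RNA a change in the number of cells of a type cannot be told apart from a change in RNA per cell.

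Library totals ran from 21461294 to 30210204 counts. CPM is the count divided by the library's total and brought to one shared scale. As the smallest detectable level, 3 counts were taken, which correspond to 0.0993 to 0.140 CPM on totals without TMM scaling. The other CPM values are on TMM-scaled totals, so this range is approximate for them. Such floors cover counting error only. Pdgfra was at 227 to 1022 CPM and Cd34 at 216 to 2346 CPM, while Ptprc, the gene of CD45, reached at most 0.243 CPM. The libraries also fell into 7 and 15 by the mean level of 192 genes that follow Rnf10, with a gap of 0.70 on the log2 scale between the sides. The 7 were day 1 CTRL replicates 1 to 3, day 1 EXP replicates 1 and 2, and day 4 CTRL replicates 3 and 4. Within the 7, Csf3 was at 0.635 to 4.61 CPM in day 1 CTRL (n = 3) and 142 to 362 CPM in day 1 EXP (n = 2). Within the 15 it was at 1.72 CPM (n = 1) and 27.8 to 144 CPM (n = 3) in these groups. In day 1 EXP, Cxcl2 was at 348 to 539.8 CPM within the 7 and 159 to 277 CPM within the 15. Cxcl3 was at 23.0 to 35.4 and 6.63 to 21.6 CPM there, while Csf3, Cxcl1 and Cxcl5 overlapped between the sides. In day 4 CTRL (n = 2 on each side), Csf3 was at 0 to 0.952 CPM within the 7 and 1.63 to 2.08 CPM within the 15. Cxcl2 was at 47.6 to 92.5 and 40.1 to 40.2 CPM in that group, and Cxcl1, Cxcl3 and Cxcl5 overlapped.

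In each of the 5 genes, the 3 EXP groups held the top 3 mean levels of the 6 groups, with the day 4 EXP group first. A gene was called at a Benjamini-Hochberg adjusted p under 0.05 in edgeR's quasi-likelihood test over all genes tested. All 5 members were called higher in EXP on days 1, 2 and 4, where 13.9%, 7.72% and 12.8% of all genes tested were called higher and 14.7%, 5.71% and 9.66% lower. Every EXP library lay above every CTRL library for 4, 5 and 5 members, against 11.7%, 20.9% and 13.8% of all genes. Since this contrast chose the members, nothing is read from these counts. The median log2 fold change of the members was 2.64, 4.20 and 5.96 on days 1, 2 and 4, beside 0.02, 0.02 and 0.03 over all genes.

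**Figure D1:**
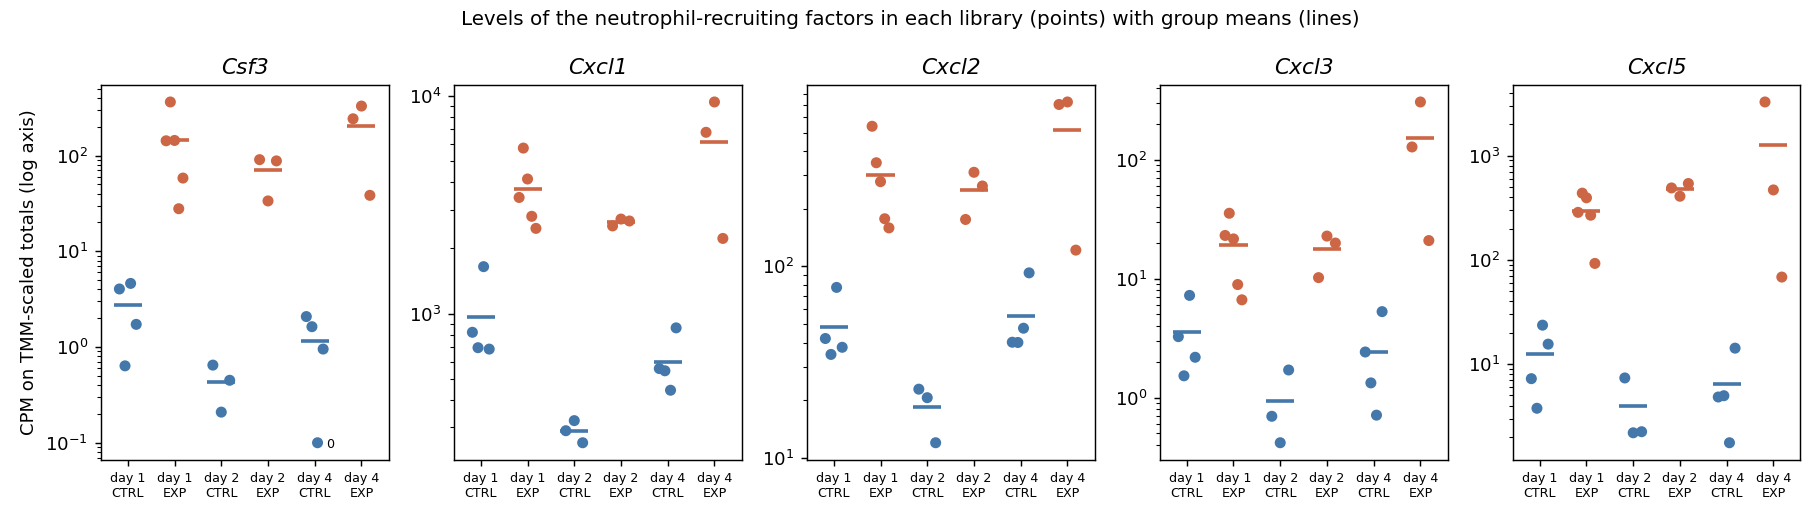
CPM on TMM-scaled totals, on a log axis, of the 5 genes in each of the 22 libraries, grouped by day and arm, with 1 point per library and a line at each group mean. EXP libraries sit above CTRL libraries of the same day, apart from the overlap of Cxcl3 on day 1; the Csf3 point labelled 0 in day 4 CTRL is a count of 0, drawn at the bottom of the axis.

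Csf3, the growth factor of the set, was scarce in CTRL fibroblasts and abundant in EXP fibroblasts. On day 1 it stood at 4.04, 0.635, 4.61 and 1.72 CPM in CTRL replicates 1 to 4 and at 142, 362, 144, 27.8 and 58.1 CPM in EXP replicates 1 to 5. On day 2 the CTRL values were 0.647, 0.209 and 0.449 CPM and the EXP values 90.5, 33.5 and 87.8 CPM. On day 4 CTRL replicates 1 to 4 had 2.08, 1.63, 0 and 0.952 CPM, and EXP replicates 1 to 3 had 242, 328 and 38.4 CPM. The arms did not overlap on any day, and the lowest EXP library, day 1 replicate 4, was still above the highest CTRL library. The 0 is a count of 0 in day 4 CTRL replicate 3, which allows up to 3 counts. Csf3 differed by 5.73 (SE 0.93), 7.32 (SE 1.24) and 7.45 (SE 1.04) on the log2 scale on days 1, 2 and 4. Without day 1 EXP replicate 2, its highest library, the day 1 difference was 5.07. Mean levels ran from day 4 EXP (203 ± 149 CPM, SD, n = 3) through day 1 EXP and day 2 EXP to day 1 CTRL, day 4 CTRL and day 2 CTRL (0.435 ± 0.219 CPM, SD, n = 3). Neighbours in this order overlapped, except day 2 EXP and day 1 CTRL.

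RefSeq windows on build GRCm38.p6 matched 3 of the 5 members, Cxcl1, Cxcl2 and Cxcl3, and the promoters of these 3 are shown. No window was found for Csf3 or Cxcl5, which were also called higher in EXP on each day. The 3 windows lie in the same region of chromosome 5. Each line gives the 120 bases before the gene start, on the plus strand, 5′ to 3′, with GGGAATTTCC, a form of the NF-kB binding motif, in capitals. The windows are at chr5:90891125-90891244 (Cxcl1), chr5:90903779-90903898 (Cxcl2) and chr5:90785981-90786100 (Cxcl3).
Cxcl1: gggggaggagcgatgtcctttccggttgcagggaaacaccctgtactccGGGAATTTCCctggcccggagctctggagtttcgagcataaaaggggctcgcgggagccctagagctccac
Cxcl2: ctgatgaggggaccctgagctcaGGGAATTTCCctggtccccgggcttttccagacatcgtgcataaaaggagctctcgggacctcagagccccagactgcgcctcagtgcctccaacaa
Cxcl3: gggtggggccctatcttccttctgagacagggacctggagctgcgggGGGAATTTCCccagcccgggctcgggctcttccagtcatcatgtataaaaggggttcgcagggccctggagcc

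The motif lay 71 to 62, 97 to 88 and 73 to 64 bases before the start of Cxcl1, Cxcl2 and Cxcl3. It was chosen after the windows had been seen and was searched on both strands. Of 32851 windows of 250 bases, 28 (0.0852%) held it. The degenerate NF-kB consensus, of which it is 1 form, was in 2382 windows (7.25%) and a TATA-like ATAAAAG in 4.83%, both including these 3 genes. A C/EBP motif, TTGCNNAA, was in 9.56% of windows and in none of the 3. Of the 25 other genes with GGGAATTTCC, 11 were tested: 4 were called higher and 3 lower on day 1, 0 and 1 on day 2, and 0 and 3 on day 4. A match describes letters and is not evidence of binding.

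Cxcl1, per kilobase the most abundant of the ligands, was already well expressed in CTRL fibroblasts. On day 1 its level was 821, 697, 1642 and 687 CPM in CTRL and 3412, 5751, 4148, 2796 and 2461 CPM in EXP. On day 2 it was 290.0, 323 and 255 CPM in CTRL and 2526, 2716 and 2661 CPM in EXP. On day 4 it was 559, 546, 445 and 859.9 CPM in CTRL and 6795, 9363 and 2213 CPM in EXP. EXP was above CTRL in every library of each day, and day 2 EXP was the tightest EXP group (2634 ± 97.8 CPM, SD, n = 3). The log2 difference was 1.95 (SE 0.35), 3.19 (SE 0.44) and 3.35 (SE 0.40) on days 1, 2 and 4. In the order day 4 EXP, day 1 EXP, day 2 EXP, day 1 CTRL, day 4 CTRL, day 2 CTRL, day 2 EXP did not overlap day 1 CTRL, and day 4 CTRL did not overlap day 2 CTRL.

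Cxcl2, a close relative of Cxcl1, was below it per kilobase in every group. Its day 1 level was 42.0, 34.7, 77.7 and 37.8 CPM in CTRL and 539.8, 348, 277, 177 and 159 CPM in EXP. Its day 2 level was 22.8, 20.6 and 12.0 CPM in CTRL and 176, 310.3 and 263 CPM in EXP. Its day 4 level was 40.2, 40.1, 47.6 and 92.5 CPM in CTRL and 702, 723 and 122 CPM in EXP. Every EXP library was above every CTRL library, with day 4 EXP replicate 3 the lowest of the EXP libraries. The log2 difference was 2.64 (SE 0.49), 3.76 (SE 0.61) and 3.23 (SE 0.53). The order of means was day 4 EXP, day 1 EXP, day 2 EXP, day 4 CTRL, day 1 CTRL and day 2 CTRL, where day 2 EXP lay above day 4 CTRL, and day 1 CTRL above day 2 CTRL, without overlap.

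Cxcl3, whose protein is closely related to CXCL2, had the lowest level per kilobase of the ligands in each group. Its day 1 values were 3.25, 1.52, 7.23 and 2.18 CPM in CTRL and 23.0, 35.4, 21.6, 8.91 and 6.63 CPM in EXP. Its day 2 values were 0.697, 0.418 and 1.71 CPM in CTRL and 10.2, 22.8 and 19.9 CPM in EXP. Its day 4 values were 2.42, 1.33, 0.712 and 5.28 CPM in CTRL and 128, 305 and 20.9 CPM in EXP. On day 1 EXP replicate 5 was below CTRL replicate 3, the single overlap between arms among the members. The log2 difference was 2.42 (SE 0.72), 4.20 (SE 0.97) and 5.96 (SE 0.87). The day 1 call was lost without CTRL replicate 2 (2.17) and without the low-count filter (2.40). Single libraries moved the difference by over 1.5 times on the linear scale: it was 3.04 on day 1 without CTRL replicate 3 and 4.95 on day 2 without CTRL replicate 3. On day 4 it was 4.93 without EXP replicate 2 and 6.68 without CTRL replicate 4. The order of means matched that of Csf3, and day 2 EXP and day 1 CTRL were the only neighbours without overlap. Reads from the parts that Cxcl3 and Cxcl2 share are uncertain. Their reference transcripts hold an identical run of 110 bases and are 91.6% identical over 320 aligned bases. Of runs of 31 bases, 4.37% of those of Cxcl2 occur in Cxcl3 and 8.11% of those of Cxcl3 in Cxcl2. How such reads were assigned is not given in the sources used here. No other pair of members shared a run of 31 bases.

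Cxcl5, a CXCR2 ligand also made by epithelial cells, was near Csf3 in the size of its differences. Its day 1 values were 7.25, 3.77, 23.6 and 15.5 CPM in CTRL and 286, 437, 395, 268 and 92.5 CPM in EXP. Its day 2 values were 7.37, 2.19 and 2.25 CPM in CTRL and 490.5, 408 and 541 CPM in EXP. Its day 4 values were 4.83, 4.97, 1.76 and 14.2 CPM in CTRL and 3278, 469 and 68.5 CPM in EXP. The arms did not overlap on any day, but day 4 EXP replicate 1 was far above the other two libraries of its group. The log2 difference was 4.56 (SE 0.92), 6.93 (SE 1.21) and 7.62 (SE 1.09). Without day 4 EXP replicate 1 the day 4 difference was 5.38, and without day 4 CTRL replicate 4 it was 8.37, while the day 2 difference was 7.75 without CTRL replicate 1. The order of means was day 4 EXP, day 2 EXP, day 1 EXP, day 1 CTRL, day 4 CTRL and day 2 CTRL, and day 1 EXP and day 1 CTRL were the only neighbours without overlap.

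**Figure D2:**
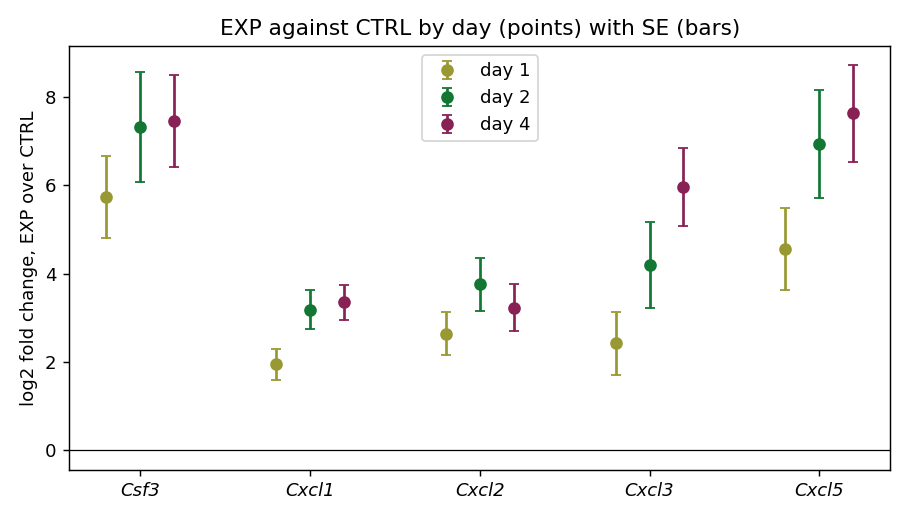
Log2 difference between EXP and CTRL with its standard error for the 5 genes on days 1, 2 and 4. Csf3 and Cxcl5 have the largest differences on each day and Cxcl1 the smallest on days 1 and 2.

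Levels between genes were compared per kilobase of the reference transcript. On that scale Cxcl1 led in every group, at 1009 ± 480.3 (SD, n = 4) CPM per kb in day 1 CTRL and 3897 ± 1372 (SD, n = 5) in day 1 EXP. Of the summed level of the 4 ligands, Cxcl1 made up 96.4%, 95.8% and 94.8% in CTRL on days 1, 2 and 4, and 91.5%, 85.8% and 86.3% in EXP. The Cxcl5 share was 0.746%, 0.788% and 0.547% in CTRL and 4.28%, 9.48% and 8.65% in EXP. The day 4 EXP mean of Cxcl5 spans 1.77% to 21.4%, with the highest share in replicate 1. Together, the 5 genes took 0.102%, 0.0263% and 0.0577% of all counts in CTRL and 0.493%, 0.400% and 0.947% in EXP.

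**Figure D3:**
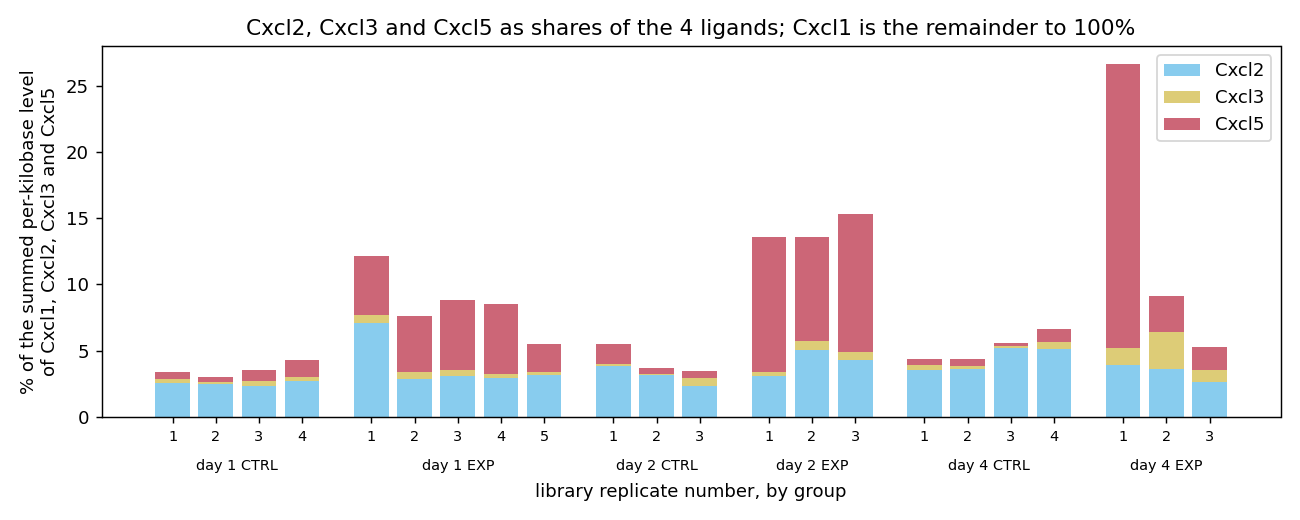
Share in percent of the summed CPM per kb of the 4 ligands taken by Cxcl2, Cxcl3 and Cxcl5, stacked, with 1 bar per library; Cxcl1 is the rest. The Cxcl5 part is at most 1.45% in any CTRL library and reaches 21.4% in day 4 EXP replicate 1.

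Whether the expander effect changed with the day was tested on differences between the daily EXP against CTRL contrasts, which chose the members. The test is thus not independent of that choice, and its p-values are given as a description. The joint interaction passed for 0 of 5 members, where 1549 genes (8.82%) passed and 4491 had an unadjusted p under 0.05. The edgeR adjusted p was 0.516 for Csf3, 0.120 for Cxcl1, 0.528 for Cxcl2, 0.0798 for Cxcl3 and 0.171 for Cxcl5. DESeq2 called Cxcl3 alone (adjusted p = 0.0355). This result depends on day 4 EXP replicate 3, which held the lowest value of its group for all 5 members. Without it, edgeR adjusted p was 0.0158 for Cxcl1, 0.0189 for Cxcl3 and 0.0456 for Cxcl5. The share of all genes passing in that fit was not counted. Of the pathway genes described below, 21 passed there, beside 13 with all libraries.

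Over days within EXP, 1 member passed, where 14.3% of genes did. Cxcl3 rose between day 1 and day 4 by 2.98 on the log2 scale and differed by -0.12 between day 1 and day 2 (edgeR joint test, adjusted p = 0.00758). It no longer passed without day 4 EXP replicate 2 (edgeR adjusted p = 0.139). Without day 4 EXP replicate 3, Cxcl1 (0.00735), Cxcl2 (0.0377) and Cxcl5 (0.0365) passed too in edgeR's adjusted p. The share of all genes passing in these fits was not counted. The other members had edgeR adjusted p of 0.472 (Csf3), 0.101 (Cxcl1), 0.324 (Cxcl2) and 0.171 (Cxcl5). Over days within CTRL, edgeR called 0 members, where 51 genes (0.291%) passed and 2490 had an unadjusted p under 0.05. Cxcl1 had the lowest adjusted p there (0.106), and it passed in DESeq2 (adjusted p = 0.00904), with CTRL libraries alone in edgeR (0.0432) and without day 4 EXP replicate 3 (0.0296).

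Among the receptor genes of these factors, Cxcr1, Cxcr2 and Csf3r were at or near 0 in the sorted cells, and Ackr1 was not. Cxcr2 and Cxcr1, the receptors of the ligands, had 0 counts in all 22 libraries, which allows up to the floor in each. Csf3r, the G-CSF receptor, had 34 counts in 6 libraries, 28 of them in day 2 EXP replicate 1. Ackr1, an atypical chemokine receptor that binds chemokines without G protein signalling, was present in all 22 libraries. It fell in EXP on day 2 (log2 difference -1.88, SE 0.52, adjusted p = 0.0213 in edgeR) and had values of 0.58 and -0.97 on days 1 and 4, which did not pass. The day 2 call was lost without the low-count filter (edgeR adjusted p = 0.0697) and without CTRL replicate 2, EXP replicate 1 or EXP replicate 3 (0.0825 to 0.113), and without EXP replicate 2 the difference was -2.67. Of the other CXCR2 ligands, Cxcl15 had 0 counts and Ppbp, the platelet chemokine, had 136 counts in 9 libraries, 95 of them in day 4 EXP replicate 1. Ppbp passed on day 4 in edgeR (adjusted p = 0.0138) but not without that library (adjusted p = 0.0933).

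Several sets of markers of other cell types moved with the arm. The summed level of 12 neutrophil markers was 2.12 to 5.29 CPM in CTRL and 5.66 to 15.0 CPM in EXP on day 1, 1.41 to 3.38 and 17.2 to 20.7 CPM on day 2, and 0.943 to 4.53 and 3.44 to 9.89 CPM on day 4. Most of it was Mmp8 (up to 18.2 CPM), while Cxcr2 and Ltf were at 0 and S100a8 reached 4.74 CPM. The sum of 6 T cell markers overlapped between arms on day 1 and was 2.14 to 4.65 CPM in CTRL and 5.35 to 7.96 CPM in EXP on day 2. Most of the day 2 sum was Cd3e, which overlapped between arms (2.14 to 4.59 against 4.48 to 6.33 CPM). Trdc was at 0 to 0.0522 CPM in CTRL and 0.0660 to 1.63 CPM in EXP on that day. On day 4 this sum was 0.335 to 6.92 CPM in CTRL and 13.6 to 29.6 CPM in EXP, of which Cd3e alone made up 12.96 to 28.9 CPM in EXP. Il17a was at 0 in all libraries.

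The sum of 8 endothelial markers was 4.15 to 11.4 CPM in CTRL and 24.8 to 57.0 CPM in EXP on day 4, of which Tek alone was 16.9 to 44.8 CPM in EXP. On day 2 the endothelial sum was 0.498 to 0.783 CPM in CTRL and 2.08 to 7.39 CPM in EXP. On day 1 its median was 7.60 CPM in CTRL and 1.28 CPM in EXP, with overlap. The sum of 10 monocyte and macrophage markers was 63.3 to 111 CPM in CTRL and 64.2 to 89.9 CPM in EXP on day 1, and the arms also overlapped on days 2 and 4. Csf1r (up to 158 CPM) and Cd14 (up to 87.0 CPM) were among its highest, while Ptprc reached 0.243 CPM. Within this sum, single markers moved in opposite directions. On day 2 Csf1r was 102 to 158 CPM in CTRL and 33.7 to 74.3 CPM in EXP, while Cd68 was 3.19 to 5.22 and 8.53 to 24.9 CPM. Cd14 was 17.4 to 23.2 CPM in CTRL and 27.4 to 47.7 CPM in EXP on day 1, and 11.6 to 24.9 and 36.1 to 51.6 CPM on day 4. On day 4 the sum of 7 adipocyte markers was 2.43 to 6.82 CPM in CTRL and 4.10 to 389 CPM in EXP. The sum of 8 pericyte and smooth muscle markers was lower in EXP without overlap on day 1 (49.9 to 92.3 against 21.5 to 45.7 CPM) and day 2 (88.7 to 97.7 against 30.05 to 52.9 CPM). The sum of 10 keratinocyte markers was lower without overlap on day 2 (9.31 to 39.4 against 5.58 to 6.26 CPM). Of these markers, only Krt10 (4.23 to 14.1 against 1.48 to 4.05 CPM) and Trp63 (4.58 to 6.89 against 0.708 to 1.25 CPM) did not overlap. The sum of 10 fibroblast markers, which include the abundant collagens, was 211647 to 285621 CPM in CTRL and 94548.5 to 171522 CPM in EXP on day 1, 329704 to 409881 and 69377.7 to 172184 CPM on day 2, and 268254 to 370606 and 84447.2 to 281451 CPM on day 4, where the arms overlapped. The part of such cells in the values of the members was not tested.

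Genes of the surrounding pathway came from lists written with earlier results of these data known: receptors, upstream cytokine receptors and adaptors, transcription factors, regulators of mRNA stability and feedback, and other myeloid factors. Of 62 genes, 55 were tested. Higher and lower calls were 15 and 8 on day 1, 8 and 6 on day 2, and 6 and 20 on day 4. Over all genes tested, 13.9%, 7.72% and 12.8% were called higher and 14.7%, 5.71% and 9.66% lower on days 1, 2 and 4. The counts of each list below are to be read beside these shares. Without TMM the split of the pathway genes was 18 and 2, 11 and 3, and 9 and 10, and the median of all genes then lies at 0.21, 0.49 and 0.36 on days 1, 2 and 4.

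Of 15 upstream receptors and adaptors, 6, 4 and 1 were called higher and 2, 1 and 6 lower on days 1, 2 and 4, with median log2 differences of 0.27, -0.04 and -0.32. Il1r1, the receptor of IL-1, rose in EXP on all 3 days, by 1.32 (SE 0.22), 1.50 (SE 0.26) and 0.85 (SE 0.24), with edgeR adjusted p of 1.89e-04, 0.00106 and 0.0160. Its day 4 call was lost without EXP replicate 1 or CTRL replicate 3 (edgeR adjusted p of 0.0519 to 0.144) and with the libraries of that day alone (0.0916). Tnfrsf1b, a TNF receptor, rose on days 1 and 2 (1.61, SE 0.32, and 1.23, SE 0.38; edgeR adjusted p of 0.00103 and 0.0370) and stood at 0.55 on day 4. Its day 2 call was lost without any 1 of the 6 day 2 libraries (edgeR adjusted p of 0.0637 to 0.150). Lifr, the receptor of LIF, rose on days 1 and 2 (1.08, SE 0.23, and 1.04, SE 0.28; edgeR adjusted p of 0.00155 and 0.0158). Its day 2 call was lost without CTRL replicate 3, EXP replicate 1 or EXP replicate 3 (0.0503 to 0.0869 in edgeR), and its day 4 value of 0.57 did not pass. The day 4 value was 0.93 without TMM (edgeR adjusted p = 0.0207), 0.79 without CTRL replicate 4 (0.0401) and 0.83 without EXP replicate 2 (0.0323), and passed in each. Ripk1, an adaptor kinase of TNF signalling, fell on all 3 days (-0.77, -1.47 and -1.59; edgeR adjusted p of 0.0384, 0.00694 and 0.00266). Its day 1 call was lost without any 1 of 7 of the 9 day 1 libraries (0.0530 to 0.109 in edgeR), its day 2 call without EXP replicate 1 (0.0530), and its day 4 value was -2.18 without EXP replicate 3.

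No transcription factor met the rule for naming. Of 13, 4 were called higher and 2 lower on day 1, 0 and 0 on day 2, and 0 and 6 on day 4, with medians of 0.24, -0.44 and -0.64. The lowest value in this list, singled out after it was seen, was that of Cebpd on day 4 (-4.15, SE 0.85). The expander effect differed between days for 6 of the 13 by the edgeR interaction test, namely Nfkb1, Nfkb2, Rela, Relb, Cebpb and Stat3, subunits of NF-kB and factors of the C/EBP and STAT families. Their effect was lower on days 2 and 4 than on day 1, by -1.26 to -1.59 on day 4 for Nfkb1, Nfkb2, Relb, Cebpb and Stat3 and -0.90 for Rela. These 6 were named after their values were seen, and Rela and Cebpb did not pass without TMM (edgeR adjusted p of 0.115 and 0.0523). Of 12 regulators of mRNA stability and feedback, a list that holds the stabilisers Arid5a and Elavl1 beside decay factors and inhibitors, 1 was called higher on day 1 and 0 on days 2 and 4, while 3, 4 and 6 were called lower, with medians of 0.20, -0.66 and -0.74. Arid5a, an RNA-binding protein that stabilises inflammatory transcripts, fell on all 3 days (-0.66, -1.28 and -1.12; edgeR adjusted p of 0.0161, 0.00210 and 0.00300), the first not without CTRL replicate 2 (0.0511). Socs3, the feedback inhibitor of cytokine signalling through STAT3, fell on days 1 and 2 (-1.30 and -1.0; edgeR adjusted p of 9.43e-04 and 0.0409) and stood at -0.27 on day 4. Zfp36l1, which promotes decay of AU-rich transcripts, fell on days 2 and 4 (-0.96 and -0.75; edgeR adjusted p of 0.00633 and 0.0140). Nfkbia, the inhibitor of NF-kB, fell on the same days (-0.68 and -0.69; 0.0319 and 0.0151 in edgeR). Without TMM the day 2 calls of Socs3, Zfp36l1 and Nfkbia, the day 4 calls of Zfp36l1 and Nfkbia and the day 1 call of Arid5a did not pass. The day 2 calls of Socs3 (edgeR adjusted p of 0.0823 to 0.186) and Nfkbia (0.0708 to 0.169) were also lost without any 1 of the 3 CTRL libraries or EXP replicate 1 or 3. On day 4, Zfp36l1 was lost without EXP replicate 1 or 2 (0.0518 to 0.0639) and Nfkbia without EXP replicate 1 (0.0988), and both were lost with the libraries of that day alone (0.0628 and 0.120).

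Of 13 tested genes for other myeloid growth factors and chemoattractants, 4 were called higher on each day and 1, 0 and 2 lower, with medians of 0.92, 1.16 (1.04 with Ccl20 at its bound) and 0.96. Il11, an IL-6 family cytokine, rose by 2.96 (SE 0.61), 4.31 (SE 0.76) and 5.89 (SE 0.72) on days 1, 2 and 4, with edgeR adjusted p of 0.00142, 0.00137 and 1.29e-04, and the day 4 value was 4.22 without EXP replicate 1. Csf2, which encodes GM-CSF, rose by 3.38 (SE 1.01), 3.94 (SE 1.24) and 7.15 (SE 1.10), with edgeR adjusted p of 0.0172, 0.0397 and 4.66e-04. Its day 1 call was lost without EXP replicate 2, where the value was 2.57 (edgeR adjusted p = 0.0540). Its day 2 call was lost without any 1 of the 6 day 2 libraries (0.0585 to 0.143), with a value of 5.38 without CTRL replicate 3. Its day 4 value was 5.08 without EXP replicate 2 and 8.11 without CTRL replicate 4. Lif, a cytokine of the IL-6 family, rose on days 1 and 2 (3.31, SE 0.33, and 1.73, SE 0.37) and was at -0.16 on day 4. Cxcl12, which holds leukocytes and progenitors through CXCR4, was at 0.30 on day 1 and rose on days 2 and 4 by 3.35 (SE 0.54) and 3.30 (SE 0.49), with edgeR adjusted p of 7.39e-04 and 3.21e-04.

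**Figure D4:**
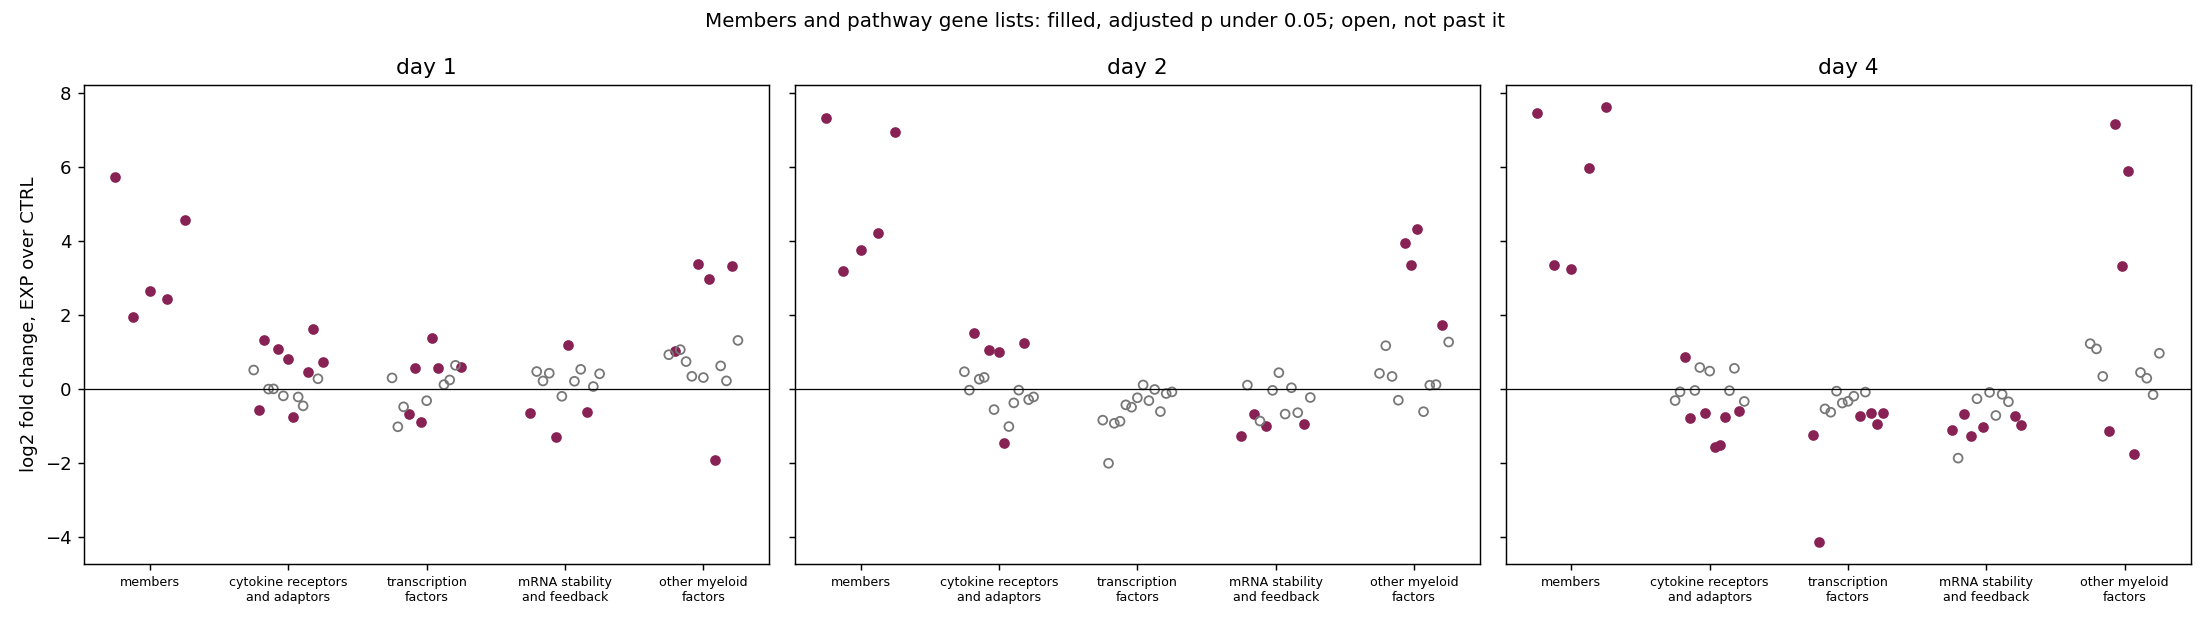
Log2 difference between EXP and CTRL for the members and each tested gene of 4 pathway lists, by day, with 1 point per gene, filled where the adjusted p was under 0.05. On day 4 no gene of the transcription factor or mRNA stability lists is filled above 0. Ccl20 is left out on the days when every CTRL library is at 0.

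As a description, the genes whose log2 CPM ran most like each member over the 22 libraries were sought among 9818 genes. The libraries fall into 2 arms, which any gene that differs between arms will follow, and r is therefore no measure of a link. The 3 nearest to Csf3 were Cct5 (r = 0.961), Eif3l (0.949) and Timp1 (0.947). Those nearest to Cxcl1 were Il33 (0.962), Steap1 (0.939) and Gm11451 (0.939), and those nearest to Cxcl2 were Il33 (0.935), Steap1 (0.932) and Ampd3 (0.928). Cxcl3 was closest to Csf2 (0.945), Steap1 (0.918) and Hacd1 (0.916). Cxcl5 was closest to Nek6 (0.966), Timp1 (0.962) and Il33 (0.951).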

How the data were processed

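The authors deposited raw read counts per gene in 1 table with a column for each of the 22 libraries, and 0 columns belonged to no listed sample. Trimmomatic and build mm39 are named per the submitters' processing notes; the aligner, counter, annotation and strandedness are not given in the sources used here. Symbols were taken from GENCODE M21, which named 52081 of 55414 identifiers; it also gave the longest coding transcripts used for lengths and likeness. Counts were analysed in R 4.3.3 with edgeR 4.0.16: filterByExpr on the 6 groups (minimum count 10), TMM, robust quasi-likelihood F-tests on all 22 libraries with a mean per group (16 residual degrees of freedom), and Benjamini-Hochberg adjustment over the 17554 genes tested. CPM are on TMM-scaled totals, and log2 CPM use a prior count of 2. The tests were tested on simulated data. Counts of replicate pairs differed well beyond counting error (29.3 to 451 chi-square units for each degree of freedom), so none were merged.

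The members and all gene lists were chosen with earlier results of these data known. From each pathway list up to 4 genes were named, those with a mean of at least 1 CPM called in 1 direction on at least 2 days and never in the other, by the smallest p; receptors and other CXCR2 ligands were all named. For each member, the 3 genes with the largest r among those with at least 5 CPM were named. Alternatives were DESeq2 1.42.0, its size factors in edgeR, no TMM, no low-count filter, the day's or arm's libraries alone, a replicate block, the library split as a covariate, and leaving out each library.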

Additional observations from a re-analysis of the deposited data

Results flagged for a closer look

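The groups of 4 or 5 libraries, day 1 CTRL, day 1 EXP and day 4 CTRL, were checked for a library that stood apart. Each check took 1 gene or ligand share in 1 group, and 8 of 66 checks flagged a library. Chance flags about 1 in 20, which is 3.3 here, but the checks reuse the same libraries and are not independent. Day 1 CTRL replicate 3 had 1642 CPM of Cxcl1 beside 687 to 821 in the other libraries, and 77.7 CPM of Cxcl2 beside 34.7 to 42.0. Day 4 CTRL replicate 4 had 92.5 CPM of Cxcl2 beside 40.1 to 47.6. In day 1 EXP replicate 1, Cxcl2 took 7.13% of the ligand level. Among other genes, Il1r1 was at 142 CPM in day 4 CTRL replicate 3, Socs3 at 1596 CPM in day 1 CTRL replicate 1, and Ackr1 at 31.9 CPM in day 1 CTRL replicate 1 and at 39.5 CPM in day 1 EXP replicate 3.

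The expander effect differed between days by the edgeR interaction test over all genes for 13 of the 55 pathway genes tested, beside 8.82% of all genes. The adjusted p was 8.04e-04 for Lif, 0.00519 for Cxcl12, 0.00753 for Csf1, 0.00926 for Nfkb2, 0.0166 for Stat3, 0.0223 for Nfkb1, 0.0234 for Relb, 0.0238 for Cebpb, 0.0340 for Nfkbia, 0.0361 for Nfkbie, 0.0388 for Zfp36l1, 0.0456 for Rela and 0.0488 for Ackr1. Lif, Cxcl12, Csf1, Nfkb2, Stat3 and Nfkb1 passed in each of the 22 edgeR fits that left out 1 library, while Ackr1 was lost in 17 of them, Rela and Zfp36l1 in 15, Nfkbia and Nfkbie in 8, Cebpb in 2 and Relb in 1. Without TMM, Rela (0.115), Cebpb (0.0523), Zfp36l1 (0.143) and Nfkbia (0.0580) did not pass in edgeR. With the replicate number as a block, Nfkb2 (0.0657), Nfkb1 (0.0673), Csf1 (0.0673) and Stat3 (0.0875) did not pass in edgeR. Rela (0.0776), Ackr1 (0.0874), Nfkbia (0.132) and Zfp36l1 (0.155) were lost there too.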

How the results depend on the processing

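Leaving out 1 library at a time gave 4 to 5, 5 and 5 members called higher on days 1, 2 and 4. It gave 0 to 3 members with a day-dependent effect, 0 to 4 changing over days within EXP and 0 to 1 within CTRL. The shares of all genes passing were not counted in these fits. Pathway genes called higher and lower then ran from 10 to 17 and 5 to 8 on day 1, 5 to 9 and 2 to 8 on day 2, and 3 to 8 and 9 to 21 on day 4. DESeq2 called 1 member with a day-dependent effect, 1 changing within CTRL and 12 pathway genes lower on day 2; CTRL libraries alone also gave 1 member within CTRL. Without TMM 2, 3 and 10 pathway genes were lower on days 1, 2 and 4. With the libraries of a day alone 16 were lower on day 2, and 3 were higher and 5 lower on day 4. With the library split as a covariate 13 were lower on day 4. The cause of these shifts was not tested. Pathway genes with a day-dependent effect, examined after the data were seen, numbered 13, and 7 (without day 1 CTRL replicate 2) to 21 (without day 4 EXP replicate 3) with 1 library left out. Without the low-count filter, Ripk1 and Csf2 on day 1 and Tnfrsf1b, Socs3, Csf2 and Ackr1 on day 2 lost their calls (edgeR adjusted p of 0.0543 to 0.109). With the split as a covariate, Ripk1 lost its day 1 call (0.0793) and the day 4 difference of Csf2 was 8.22. No named value reversed its sign past the threshold under any alternative run.

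The labels do not say whether replicate numbers pair the libraries, and the main fit assumed no pairing. Deviations of same-numbered libraries from their group means had r of -0.0664 to 0.164 on day 1, -0.0623 to -0.00327 on day 2 and 0.0795 to 0.146 on day 4. No r was computed for libraries of unlike number, so these values cannot decide whether the libraries are paired. With the replicate block, 7 residual degrees of freedom were left. The block gave 4337, 2210 and 2702 genes called on days 1, 2 and 4 beside 5017, 2359 and 3943 without it, and 401 beside 1549 for the day-dependent effect, 1365 beside 2502 within EXP and 1 beside 51 within CTRL. Pathway genes called lower numbered 11 on day 2 and 13 on day 4 under the block, and member counts did not move. A day-dependent effect was left for 5 pathway genes, namely Lif, Cxcl12, Relb, Cebpb and Nfkbie. Ripk1 on day 1 and Zfp36l1, Nfkbia and Ppbp on day 4 lost their calls under the block (edgeR adjusted p of 0.0527 to 0.0582), and the day 4 difference of Il11 was 4.90.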
